A study of Mus musculus with 2 samples.

Results

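The cytosolic ribosomal protein genes were examined as a group in DNase-seq libraries of mouse cerebral cortex. Members were the protein-coding genes of the GENCODE M21 annotation whose symbols are Rpl or Rps with a number and at most 1 further letter or letter-number, together with Rplp0, Rplp1, Rplp2 and Rpsa. Kinase genes (Rps6k), names ending in l and annotated pseudogenes were left out. The rule took 79 of 21938 protein-coding genes, of which 46 encode proteins of the large subunit, its stalk included, and 31 proteins of the small subunit. The remaining members, Rpl22l1 and Rpl7l1, encode paralogs of ribosomal proteins.

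The mice were females of B6CASTF1/J, 10 days old, and the tissue was the left cerebral cortex. B6CASTF1/J is the first-generation cross of C57BL/6J with the wild-derived strain CAST/EiJ. The 2 libraries are labelled as biological replicates 1 and 2 of 1 group, with a separately numbered animal each. No treatment, second tissue or control group is given, so values were compared between the libraries and with all other coding genes of the same libraries. Nothing in the labels separates animal from technical variation, and the spread between libraries joins both.

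Ribosomal proteins coat and order the ribosomal RNA, and a cell needs the proteins of both subunits in matched amounts. Their genes lie scattered over the chromosomes, and are known for short promoters inside CpG islands, for introns that hold small nucleolar RNAs, and for mRNAs that begin with a C followed by a run of pyrimidines (the terminal oligopyrimidine, or TOP, start), through which growth signals control their translation. The mammalian genome also holds many processed copies of these genes, made by reverse transcription of their mRNAs and mostly without a promoter of their own.

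DNase I cuts DNA where chromatin is open, and a cluster of cuts is called as a peak. The stricter peak lists held 60071 peaks in replicate 1 and 70563 in replicate 2, and the footprint lists, which give short protected stretches, held 212785 and 224029 entries. The signal of a peak is the value that the authors deposited for it, on a scale that the sources used here do not give. Its values were whole multiples of 0.00692 in replicate 1 and of 0.00758 in replicate 2. The promoter signal of a gene is the highest signal of any peak within 500 bp of any of its annotated starts. In this bulk tissue, more open chromatin per cell and more cells with open chromatin cannot be told apart. Peaks in both libraries were found at the promoters of 4 of 5 neuron markers (Syt1, Snap25, Tubb3 and Stmn2) and 3 of 4 oligodendrocyte lineage markers. They were found at 2 of 5 cortical excitatory, 2 of 4 astrocyte and 2 of 4 microglia markers. The counts were 0 of 4 for interneuron, 0 of 4 for endothelial and 0 of 5 for markers of other tissues, beside 55.2% of all protein-coding genes. Larger peak lists gave 5 neuron, 3 oligodendrocyte lineage, 4 cortical excitatory, 4 astrocyte and 3 microglia markers. They gave 0 interneuron markers, and 1 each for endothelial cells and other tissues, beside 61.0% of all coding genes. The microglia genes C1qa and C1qb had mean signals of only 0.583 and 0.603.

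In both libraries, all 79 genes had a peak at the promoter, against a background of 55.2% of all protein-coding genes (12105 of 21938), whose promoters are called open in what follows. The same count was reached within 500 bp of the reference start alone, the start of the transcript that the annotation ranks first. The median promoter signal over the 79 genes was 3.86 in replicate 1 (range 1.40 to 8.79) and 5.55 in replicate 2 (range 1.63 to 11.8). The mean of both libraries had a median of 4.67 and quartiles of 3.46 and 6.41, beside a median of 2.89 and quartiles of 1.61 and 4.67 over open promoters. In mean signal, 66 of the 79 genes (83.5%) lay above the median of open promoters and 13 below it. Of the 79, 40 genes stood among the top 25.0% of open promoters (50.6%), 14 among the top 10.0% (17.7%), and only Rplp0 among the top 1.01% (1.27%). The ribosomal protein promoters were thus raised in the middle of the range rather than at its extreme, and only Rpl4 lay below the lower quartile of open promoters.

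The subunits had similar levels. The large subunit had a median mean signal of 4.60 (n = 46) and the small subunit 5.18 (n = 31), with ranges of 1.59 to 10.2 and 1.65 to 8.36 that overlapped almost throughout. The annotated starts did not give these genes a larger search window than others: it spanned a median of 2060 bp for the 79 genes and 2469 bp for open promoters.

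**Figure D1:**
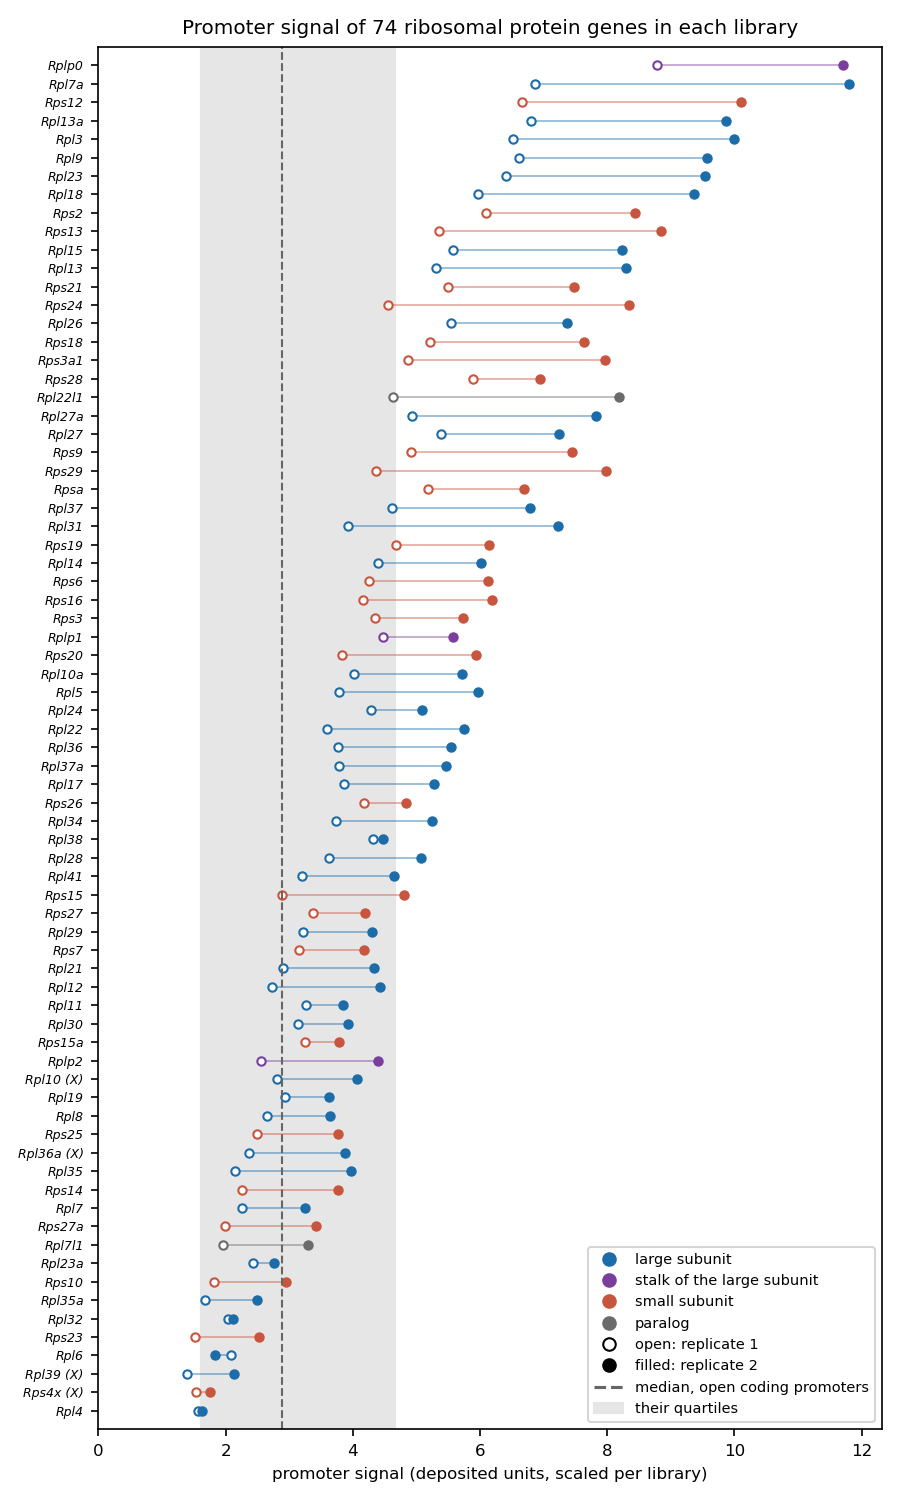
Promoter signal of 74 of the 79 genes (x axis, deposited units, whose step differs by library) in replicate 1 (open circles) and replicate 2 (filled circles). Genes are sorted by the mean and coloured by subunit. The dashed line and grey band are the median and quartiles of the mean signal over 12105 open coding promoters. Values run from Rpl4 at 1.56 and 1.63 to Rplp0 at 8.79 and 11.7, and replicate 2 is the higher for every gene drawn except Rpl6.

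The strongest promoter of the group was that of Rplp0, the scaffold protein of the stalk that recruits translation factors. Its signal was 8.79 in replicate 1 and 11.7 in replicate 2 (mean 10.2 ± 2.07, SD, n = 2), which placed it 90th among open promoters. Rpl7a, of the large subunit, had the widest difference in signal units, at 6.87 and 11.8 (mean 9.35 ± 3.51). Rps12, a small subunit protein, followed at 6.66 and 10.1 (mean 8.36 ± 2.41). Rpl13a, which also serves outside the ribosome as a translational silencer, gave 6.80 and 9.87 (mean 8.33 ± 2.17). Rpl3, whose protein reaches towards the peptidyl transferase centre, gave 6.52 and 10.0 (mean 8.26 ± 2.47). In replicate 1 Rpl13a was the highest of these last 3, and in replicate 2 the lowest, so their order is not resolved. Rps12 stood above Rpl3 in each library. The SDs hold the offset between libraries that most open promoters share, so they do not measure the order of genes.

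Further genes among the 12 highest came from both subunits. The large subunit genes Rpl9, Rpl23 and Rpl18 had mean signals of 8.09 ± 2.09, 7.97 ± 2.21 and 7.67 ± 2.40. The small subunit genes Rps2 and Rps13 had 7.26 ± 1.66 and 7.10 ± 2.46. Rpl9 stood above Rpl23, and Rpl23 above Rpl18, in each library. Rps2 was above Rps13 in replicate 1 and below it in replicate 2.

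The 5 promoters of highest signal are printed here to show what DNA lies under them, followed by Rps19, the gene with the most footprints found in both libraries. Each sequence runs 5′ to 3′ on the strand of the gene, from 120 bases before the reference start to 30 bases from it on, on mm10 (C57BL/6J sequence; the CAST/EiJ copy was not examined). Capitals mark bases inside footprints of both libraries. Rplp0 lies at chr5:115559347-115559496 (plus strand), Rpl7a at chr2:26910644-26910793 (plus), Rps12 at chr10:23787246-23787395 (minus), Rpl13a at chr7:45128732-45128881 (minus), Rpl3 at chr15:80083377-80083526 (minus) and Rps19 at chr7:24884251-24884400 (plus).
Rplp0: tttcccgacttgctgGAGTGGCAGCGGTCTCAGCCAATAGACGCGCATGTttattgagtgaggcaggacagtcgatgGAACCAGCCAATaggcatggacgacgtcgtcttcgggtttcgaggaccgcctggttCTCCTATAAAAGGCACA
Rpl7a: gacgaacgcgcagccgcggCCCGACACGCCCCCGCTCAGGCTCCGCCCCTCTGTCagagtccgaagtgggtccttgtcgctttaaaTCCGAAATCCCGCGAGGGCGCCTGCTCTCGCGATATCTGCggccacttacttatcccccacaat
Rps12: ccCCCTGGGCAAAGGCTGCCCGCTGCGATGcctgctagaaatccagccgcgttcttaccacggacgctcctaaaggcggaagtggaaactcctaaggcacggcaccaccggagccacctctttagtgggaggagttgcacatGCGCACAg
Rpl13a: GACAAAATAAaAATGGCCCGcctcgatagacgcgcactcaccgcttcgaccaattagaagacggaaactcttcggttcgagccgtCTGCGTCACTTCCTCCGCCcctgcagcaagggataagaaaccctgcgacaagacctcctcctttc
Rpl3: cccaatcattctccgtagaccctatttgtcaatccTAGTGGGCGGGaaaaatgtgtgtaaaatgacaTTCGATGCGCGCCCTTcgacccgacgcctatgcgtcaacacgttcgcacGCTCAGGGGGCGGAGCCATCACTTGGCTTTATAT
Rps19: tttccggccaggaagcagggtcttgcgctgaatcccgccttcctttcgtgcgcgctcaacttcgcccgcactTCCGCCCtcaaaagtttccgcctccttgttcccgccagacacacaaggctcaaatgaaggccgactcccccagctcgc
Footprints covered 64 of the 150 bases at Rplp0, 76 at Rpl7a, 35 at Rps12, 38 at Rpl13a, 61 at Rpl3 and 7 at Rps19. At Rplp0 the capitals take in 2 CCAAT matches and, after the annotated start, a TATAAA, and at Rpl3 they take in 2 GGGCGG matches and a TATAAA read on the other strand. Rps19, which codes for the small subunit protein most often mutated in Diamond-Blackfan anaemia, had its shared footprints mostly outside this stretch.

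The lowest signals were at the other end of the order. Rpl4, whose protein lines the exit tunnel, had 1.56 and 1.63 (mean 1.59 ± 0.0517). Its strongest peaks were centred upstream of its reference start (-354.5 bp and -454.5 bp), beyond the start of the divergent gene Zwilch, 271 bp away. The peak over the Rpl4 start itself had a signal of 0.948 in both libraries. Zwilch, a kinetochore gene, received the same promoter values as Rpl4, because the windows of both genes hold the same peaks. The signals of the other genes at this end were 1.54 and 1.75 for Rps4x, 1.40 and 2.13 for Rpl39, 2.08 and 1.84 for Rpl6, and 1.52 and 2.53 for Rps23, whose protein sits at the decoding centre. Rpl32 had 2.04 and 2.11, and Rpl35a 1.67 and 2.50. In replicate 1, all of these genes were below that library's median of 2.30 for open promoters, and in replicate 2 all were below 3.46.

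All 4 X-linked members lay in the lower part of the group. Rps4x and Rpl39 were among the 8 lowest (means 1.65 ± 0.147 and 1.76 ± 0.518), Rpl36a gave 2.36 and 3.88 (mean 3.12 ± 1.08), and Rpl10, which joins the large subunit late in its assembly, gave 2.81 and 4.06 (mean 3.44 ± 0.887). Their median was 2.44, against 4.87 for the 75 autosomal members. The same step was seen over all genes: open promoters on the X had a median of 1.58 (n = 388) and autosomal ones 2.96 (n = 11717). All 4 genes stood above that X median, and Rpl36a and Rpl10 also above the X upper quartile of 2.37. In female cells 1 of the X copies is largely silent, and its part in these values was not tested.

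The 3 stalk genes differed among themselves, with Rplp1 at 4.47 and 5.58 (mean 5.02 ± 0.785) and Rplp2 at 2.55 and 4.40 (mean 3.48 ± 1.31), both below Rplp0 in each library. A chosen list of 9 genes mutated in Diamond-Blackfan anaemia, a failure of red cell production, had a median of 4.38. The listed genes took no common place in the order, and the list may leave out other members linked to the disease. Rps24 was highest of them at 6.45 ± 2.69 and Rps19 had 5.41 ± 1.03. Rpl5 and Rpl11, whose proteins join a particle that binds the p53 regulator Mdm2, had 4.87 ± 1.54 and 3.55 ± 0.419. Rps26 had 4.50 ± 0.464, Rps7 had 3.66 ± 0.722, and Rps10 and Rpl35a had 2.38 ± 0.798 and 2.09 ± 0.585.

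The libraries agreed closely on the order of the genes. Over the 79 promoters, log2 signals correlated with a Pearson coefficient of 0.95 and signals with a Spearman coefficient of 0.96, described across genes that share both libraries. Replicate 2 was higher for 78 genes (98.7%, background 97.3%), with a median log2 ratio of replicate 2 over replicate 1 of 0.54, beside 0.56 over open promoters. Expressed in steps of the deposited scale rather than in deposited units, the ratio was 0.41 for the members and 0.43 for open promoters. No member had signals over 2-fold apart, against a background of 4.39% of open promoters.

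The ratio varied from gene to gene by an SD of 0.21 on the log2 scale, against 0.28 over open promoters. The widest gaps were those of Rpl35 (2.14 and 3.97, log2 ratio 0.89), Rpl31 (3.93 and 7.22, 0.88), Rps24 (4.55 and 8.35, 0.88) and Rps29 (4.36 and 7.98, 0.87). The smallest or opposite ratios were those of Rpl38 (4.32 and 4.48, 0.05), Rpl32 (0.05), Rpl4 (0.07) and Rpl6, the only gene with the higher signal in replicate 1 (log2 ratio -0.17). If 1 step stands for 1 cut, the median strongest peak of these genes held 558 cuts (counting error 4.23%) in replicate 1, and 732 cuts (3.70%) in replicate 2. The meaning of a step is not given in the sources used here.

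**Figure D2:**
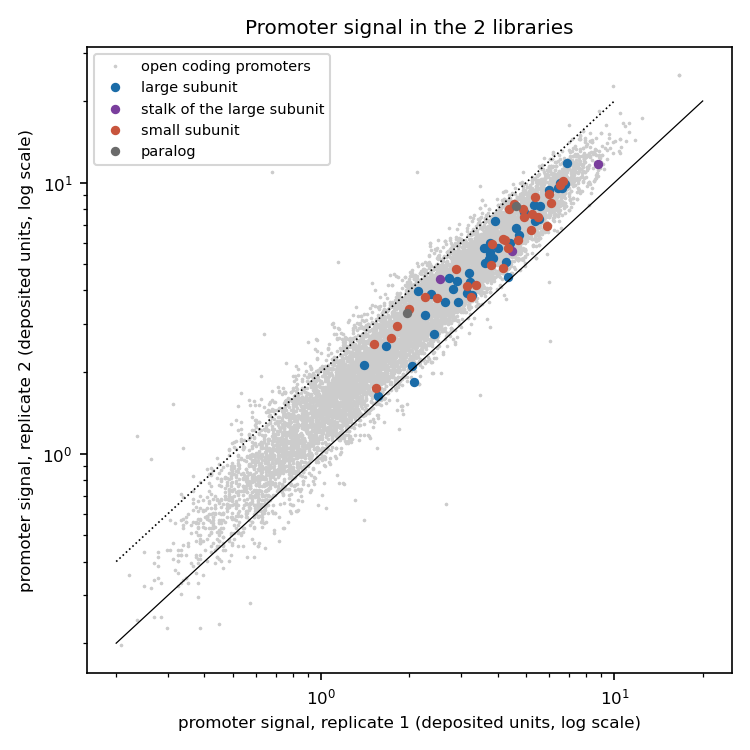
Promoter signal in replicate 1 (x axis) against replicate 2 (y axis), both in deposited units on log scales, for 12105 open coding promoters (grey) and the 79 genes (coloured by subunit); the solid line marks equal signals and the dotted line a 2-fold higher signal in replicate 2. All members lie between the lines except Rpl6, just below the solid line.

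The peaks sat close to the annotated starts. The midpoint of the strongest peak lay at a median of -27.5 bp from the reference start in each library (upstream counted as negative), with quartiles of -66.5 and 15.0 bp in replicate 1, and its median width was 220 bp in both. A peak lay over the reference start in both libraries for 68 genes (86.1%, background 63.2% of open promoters). The open promoters include genes whose only peaks lay at other annotated starts. For 6 genes no peak of either library lay over the reference start: Rpl12, Rpl19, Rpl35, Rpl41, Rps10 and Rps25. In the RefSeq promoter table, described below with the TOP starts, the nearest start of Rpl19 was the reference start. For the others it lay downstream, by 153 bp at Rpl12, 493 bp at Rpl35, 137 bp at Rpl41, 301 bp at Rps10 and 575 bp at Rps25. The strongest peaks of Rps25 and Rpl35 were centred 491.5 bp and 433.5 bp downstream of the reference start in replicate 1, and 491.5 bp and 443.5 bp in replicate 2. More than 1 promoter peak in both libraries was found for 21 genes (26.6%, background 33.0%), so a single compact peak was the commoner arrangement.

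Rps19 had the broadest peak, 640 bp wide in replicate 1 and 700 bp in replicate 2. The deposited lists of the false discovery rate (FDR) of the cut rate gave a second measure of breadth, the number of bases with an FDR of at most 0.001 within 500 bp of the reference start. Its median was 525 bp in replicate 1 and 587 bp in replicate 2 for the members, and 481 bp and 538 bp for open promoters. The members' range, from 261 to 930 bp in replicate 1, included no gene without such bases, whereas 983 of the 12105 open promoters had none around their reference start. Open promoters needed a peak at any annotated start only, and 11011 of the 12105 had one near the reference start in both libraries. All 79 members had one there, so the groups are not alike in this measure. The narrowest stretch in replicate 1 was at Rpl35 (261 bp), whose strongest peak was centred 433.5 bp downstream, near the edge of the window.

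Each of the 79 genes had at least 1 footprint shared by both libraries within 500 bp of a start, against 54.0% of all coding genes and 94.2% of open promoters. The median number of footprints was 5 per library for members and open promoters alike. Shared footprints numbered 4 for the median member and 3 for the median open promoter, and 45 members (57.0%, background 45.1%) had 4 or more. Of the footprints in the members' windows, 67.0% of those in replicate 1 and 67.3% of those in replicate 2 were also found in the other library, against 59.9% and 59.7% at open promoters. The number of shared footprints went with signal across the members (Spearman 0.42, n = 79) and across open promoters (0.66, n = 12105), a description whose part in these counts was not tested.

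The most shared footprints were found at Rps19 (10, among 15 and 17 in the 2 libraries) and Rpl13a (9), while Rps18, Rpl18 and Rpl10a had 7 each. Only 1 was shared at Rpl6 and Rps4x. For Rpl6 and Rps4x, replicate 2 had a single footprint, while replicate 1 had 5 and 4. These 2 genes also belong to the 8 of lowest signal.

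Protected bases were concentrated around the start. In the 100 bp before the reference start, 19.9% of the members' bases lay in footprints of both libraries, against 15.1% for the 11011 genes with a peak within 500 bp of the reference start in both libraries. In the first 100 bp from the start on, the values were 11.8% and 6.92%, a ratio of 1.70. In the 100 bp before those they were close, at 8.81% and 8.17%. As a ratio, the difference between members and other genes was larger from the start on (1.70) than in the 100 bp before it (1.32). In percentage points it was alike in these zones.

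**Figure D3:**
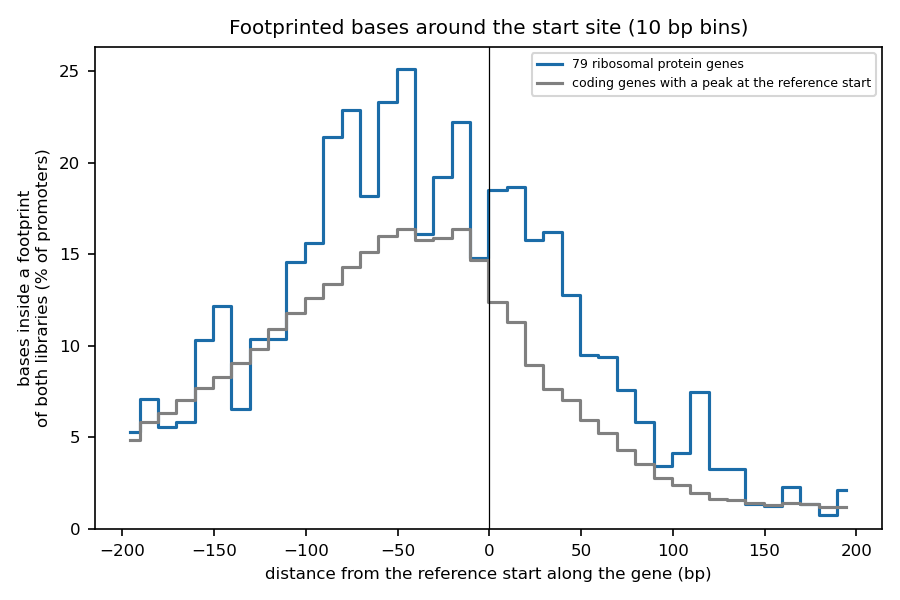
Share of promoters (y axis, percent) whose bases lie inside a footprint of both libraries, in 10 bp bins by distance from the reference start along the gene (x axis, bp), for the 79 genes (blue) and 11011 coding genes with a peak within 500 bp of the reference start (grey). In the first 100 bp from the start the members average 11.8% and the others 6.92%.

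Sequence was searched from 250 bases before to 50 after the reference start, on both strands, for short cores of promoter factors. Motif positions count the start base as 1. The core CCGGAAG of ETS factors such as GABPA was in 27 of the 79 promoters (34.2%), against 11.2% of all coding promoters. It was in 19.4% of the 11011 promoters with a peak within 500 bp of the reference start. Its 34 matches in the members lay at a median position of -25.5. Footprints of both libraries overlapped 12 of the 34 (35.3%, beside 27.1% of the matches at open promoters), in 10 genes. Rps21 and Rpl15 each had a pair of protected matches.

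The palindrome CTCGCGAG, the core bound by BANP, was in 9 members (11.4%), against 1.17% of all coding promoters and 2.11% of those with a peak. Among them were Rpl4, Rpl10a, Rpl17, Rpl26, Rpl27a, Rps6 and Rps28. Footprints of both libraries overlapped 4 of the 9 matches (44.4%, beside 31.8% at promoters with a peak), those in Rpl17, Rpl26 and Rps6 among them. With footprints extended by 5 bp the number was 7, and the share at promoters with a peak 50.2%. The core ACTACAA of ZNF143 was also in 9 members (11.4%, background 3.75%, and 4.68% of promoters with a peak). Of its 10 matches, 1 (10.0%), in Rps9, was in a footprint of both libraries, near the 11.9% of matches at promoters with a peak. The core AAGATGGC of YY1 was in 6 members (7.59%, background 3.14%, and 5.19% of promoters with a peak). Of its 6 matches, 5 lay just after the start. At least 1 of these 4 cores was in 41 members, against 17.6% of all coding promoters and 28.2% of those with a peak.

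For the other cores, the share of all coding promoters and then that of promoters with a peak stand beside the members' count, with no test. The SP/KLF box GGGCGG was in 42 members (53.2%, background 45.4%, but 67.2% of promoters with a peak), and CCAAT was in 23 (29.1%, background 38.5%, and 39.9%). The E-box CACGTG was in 10 (12.7%, background 7.71%, and 10.5%). The NRF1 core GCGCATGCG was in 2 (2.53%, background 2.52%, and 4.07%). The CTCF core AGGGGGC, which can overlap a GGGCGG, was in 5 (6.33%, background 12.2%, and 16.6%). The cyclic AMP response element TGACGTCA was in 6 (7.59%, background 2.47%, and 3.92%). A footprint of both libraries lay over it in Rpl13, Rpl18, Rpl27a, Rps9 and Rps29. At promoters with a peak, 81.4% of its matches were in such footprints. The E2F core TTTGGCGC was in 0 members (background 0.707%, and 1.15%). The AP-1 core TGANTCA was in 5 (6.33%, background 6.79%, and 3.74%). The shorter TGACGTG was in 2 (2.53%, background 2.14%, and 2.98%). The shares of the NRF1, AP-1 and TGACGTG cores were near those of all coding promoters. Those of the response element and the E-box were higher, and those of the CTCF core and CCAAT lower. The SP/KLF share lay above that of all coding promoters and below that of promoters with a peak.

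**Figure D4:**
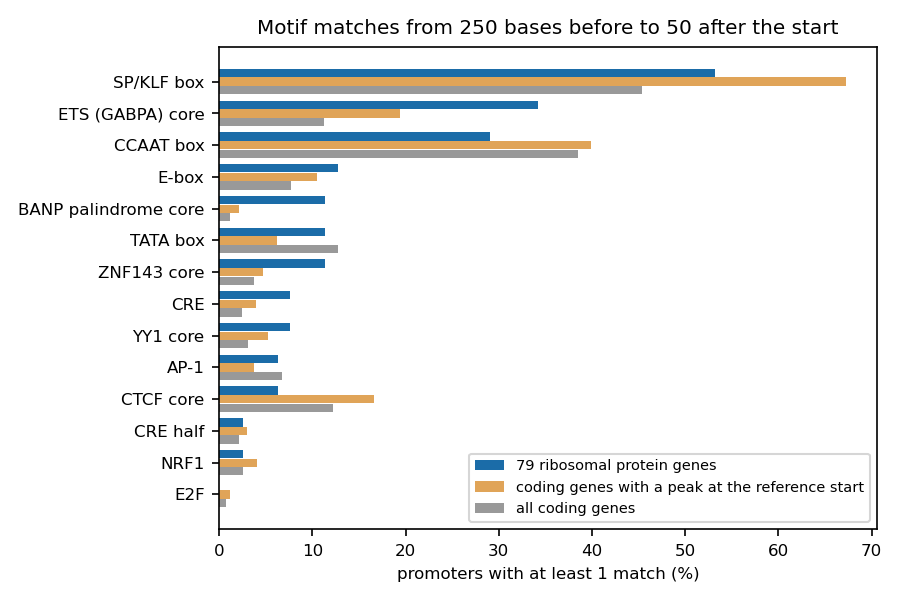
Share of promoters (x axis, percent) with at least 1 match to each of 14 motif cores (y axis) between 250 bases before and 50 after the reference start. Shown are the 79 genes, 11011 coding genes with a peak within 500 bp of the reference start and all 21938 coding genes. The ETS core stands at 34.2% in the members, 19.4% and 11.2%, and the BANP palindrome at 11.4%, 2.11% and 1.17%.

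The TATA box core TATAAA was in 9 members (11.4%, background 12.7%), against 6.19% of promoters with a peak. Of its 11 matches, 7 (63.6%) were in footprints of both libraries, in Rplp0, Rpl3, Rpl22l1, Rps2, Rps20 and Rps28, beside 11.7% of the matches at promoters with a peak. A TATA box is known to lie shortly before the base where transcription starts, yet 7 of the 11 matches lay after the annotated start. The matches at positions 41 and 45 of Rpl22l1 overlap each other and are counted separately in each total. The nearest RefSeq start of Rpl22l1 lay 72 bp downstream of the reference start, while for Rpl36a, Rplp0 and Rps28 it was the reference start. At Rps2 the protected match began 30 bases before the reference start, at Rplp0 18 bases and at Rps28 38 bases into the annotated transcript.

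Stretches of 30 bases around protected matches are printed on the strand of the gene, with the core in capitals, to show that the same core sits in different surroundings and at different distances from the start. They come from mm10: chr2:180257280-180257309 and chr2:180257342-180257371 for the ETS cores of Rps21 (plus strand), chr11:68901530-68901559 (plus) and chr4:86857399-86857428 (minus) for the BANP cores of Rpl26 and Rps6, chr17:24720068-24720097 (plus), chr5:115559472-115559501 (plus) and chr17:33824508-33824537 (minus) for the TATA cores of Rps2, Rplp0 and Rps28, and chr7:3703973-3704002 (plus) for Rps9.
Rps21, ETS: ctttctttgcaCCGGAAGcggaagttaaaa
Rps21, ETS: agtaccctgacCCGGAAGcacttaccgagg
Rpl26, BANP: gctccgagactCTCGCGAGatctcgcggca
Rps6, BANP: cgccggctgttCTCGCGAGaacttagagcg
Rps2, TATA: ttcttggagcacTATAAAttgtcccttccg
Rplp0, TATA: gcctggttctccTATAAAaggcacacgcgg
Rps28, TATA: gtcagagccgacTATAAAaggcatcccctg
Rps9, response element: gcggtgcgtgaTGACGTCActacaaggcga
In Rps9 the last base of the response element is the first of the ZNF143 core ACTACAA. Rpl26 carries the BANP palindrome 42 bases and Rps6 5 bases before the start.

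A TOP start was scored as a C followed by at least 4 pyrimidines. It lay exactly at the reference start in 10 members (12.7%, background 2.26%), among them Rpl4, Rpl30, Rpl32, Rpl36, Rpl37, Rpl37a, Rps2, Rps21 and Rps24. Within 10 bp of the reference start it was found in 37 (46.8%, background 30.6%). At any annotated start of the gene, a count added after the first results were seen, it was found in 34 (43.0%, background 8.52%). The RefSeq promoter table (GRCm38.p6), also added after those results, matched 59 of the 79 symbols. Its nearest start was the GENCODE reference start for 12, downstream of it for 38 and upstream for 9, and 13 of the 59 (22.0%) had a TOP start at any of their RefSeq starts, against 2.71% of the genes in that table. The count thus changed with the annotated start that was used.

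Neighbouring and nested genes were also counted. A coding gene on the other strand began within 1000 bp upstream of 9 members (11.4%, background 6.91%), a share close to the 11.8% of open promoters. These were Med22 for Rpl7a, Lias for Rpl9, Nkiras1 for Rpl15, Vps52 for Rps18, Ndufa7 for Rps28, Lrsam1 for Rpl12, Clhc1 for Rps27a, Iqcg for Rpl35a and Zwilch for Rpl4. Their median mean signal was 6.41, against 4.66 for the 70 other members, with a range from 1.59 to 9.35 that covers most of the group. Open promoters with and without such a neighbour had medians of 4.25 and 2.69. At least 1 small nucleolar RNA gene lay inside 30 members on the same strand (38.0%, background 1.18%). Their median signal was 5.11, against 4.50 for the 49 others. Chromosome 7 held 14 of the 79 genes (17.7%), beside 7.65% of open promoters.

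Ribosome components that the symbols did not capture had open promoters as well. Fau, whose protein carries a small subunit protein fused to a ubiquitin-like part, had 5.80 and 9.37 (mean 7.59 ± 2.52). Mrpl49, whose window holds the same peaks, had the same values. Rack1, a scaffold on the small subunit, had 2.18 and 2.65 (mean 2.41 ± 0.330).

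Of 9 ribosomal protein paralogs, 4 had a peak in both libraries. They were Rpl22l1 (4.63 and 8.18), Rpl36al (5.04 and 7.52), Rpl7l1 (1.96 and 3.29) and Rps27l (2.00 and 2.62). Rpl3l, known from muscle, and Rpl10l and Rpl39l, known from testis, had no peak within 500 bp of a start in either library, and neither did Rps27rt. Rps4l, which the annotation lists as a transcribed pseudogene, had one in replicate 2 (0.591).

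The other gene groups of the translation machinery served as neighbours in function. All 16 genes of translation and related factors known for TOP mRNAs had a peak in both libraries, with a median mean signal of 5.59. The highest were Npm1 (8.20 ± 2.55), Eef1g (7.50 ± 3.30) and Eif4b (7.38 ± 3.51). All 32 ribosome biogenesis genes had one too, with a median of 4.15, led by Rrp9 (9.31 ± 3.27), Npm1 and Nolc1 (8.19 ± 2.46). The mitochondrial ribosomal protein genes had a peak in both libraries in 77 of 78 cases, with a median of 3.24. Mrpl17 (9.81 ± 3.85), Mrps18b (8.79 ± 2.97) and Mrpl18 (8.71 ± 2.33) were highest, and Mrpl53 had a peak in replicate 2 only (1.68). Eef1a2, the elongation factor form of neurons and muscle, had 1.60 and 2.06. The median of the cytosolic ribosomal proteins thus stood between those of the TOP factors and of biogenesis, and the mitochondrial set was nearer to open promoters in general.

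**Figure D5:**
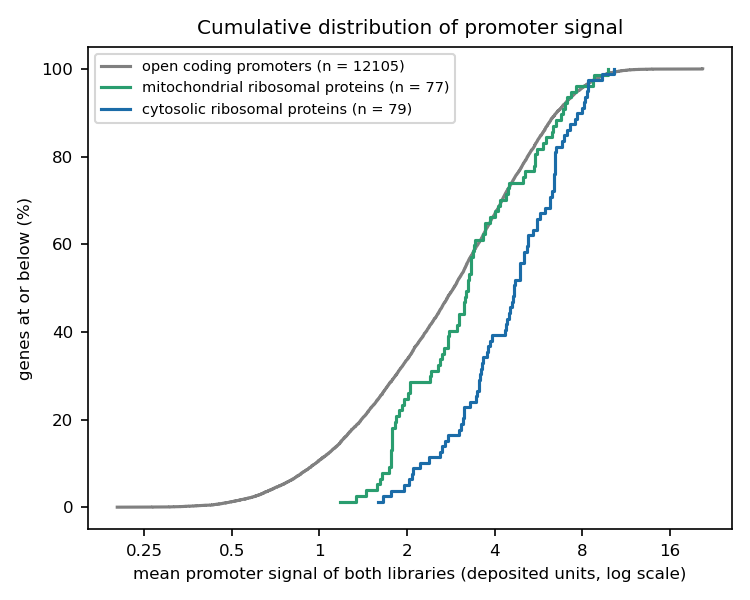
Cumulative share of genes (y axis, percent) by mean promoter signal of both libraries (x axis, deposited units, log scale) for 79 cytosolic and 77 mitochondrial ribosomal protein genes and 12105 open coding promoters. The medians are 4.67, 3.24 and 2.89, and the curves of the gene groups meet at the top of the range.

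The gene copies that were counted were almost all closed. Pseudogenes of any type were taken by Rpl or Rps symbols holding -ps, so copies under other names were not counted. Of these 294, 2 (0.680%) had a peak within 500 bp of their start in both libraries, against 1.16% of all 10236 processed pseudogenes. The larger peak lists gave 5 (1.70%), against 2.04%. Rps19-ps10 on chromosome 10 had 0.616 and 0.932 (mean 0.774 ± 0.224). Rpl29-ps2 on chromosome 13 had 3.77 and 4.09 (mean 3.93 ± 0.223), within the range of the parent genes, but its start lies 486 bp from that of the coding gene Akr1e1. Reads from near-identical copies cannot always be placed, and how the authors treated them is not given in the sources used here.

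CpG content was high at the members. The observed over expected ratio of CpG in the 1000 bp around the reference start had a median of 0.82 (range 0.51 to 1.02), against 0.74 for open promoters. Across the members it followed signal loosely (Spearman 0.41, n = 79, with composition and library shared), beside 0.29 over the 12105 open promoters.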

How the data were processed

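DNase-seq libraries of 2 mice were used. Peaks, footprints and FDR positions were made from each library's own alignments on mm10, without pooling, per the deposited file headers. Aligner, callers and thresholds are not given in the sources used here. As deposited by the authors, the peak signal is 1 value per peak, scaled by library. All values were whole multiples of a step (100% within 0.05). Every footprint carried a deposited p-value of 0.01, which gives them no rank. Deposited FDR values reached 0.0500 and 0.0499.

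Starts and symbols came from GENCODE M21 on GRCm38.p6. Scripts used Python 3.11.15, numpy 2.4.6, pandas 2.3.3 and pysam 0.24.0. The stricter of 2 peak lists per library was used. Shared means an overlap of at least 1 bp. The scoring was tested on simulated data. With 1 group, no test was run. SDs are over 2 libraries. Members, lists and motifs were chosen with earlier results of these data known. Named members were the 12 highest and 8 lowest signals, the 4 widest log2 gaps each way, and the most and fewest shared footprints. The X-linked, stalk and listed Diamond-Blackfan genes were also named. Genes named for a motif, a start or a peak position were named after their values were seen. From related lists of up to 9 genes all were named, otherwise the 3 highest and those without a peak. Alternatives were larger peak lists, other windows, stricter overlap, stronger peaks and each library alone. Some genes that these rules take are not reported here.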

Additional observations from a re-analysis of the deposited data

How the results depend on the processing

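No paired analysis was possible because the libraries form a single group. The count of members with a peak in both libraries was 79 under larger peak lists, windows of 250 and 1000 bp, the reference start only, equal numbers of top peaks, the stronger 50% of peaks and each library alone, and 78 with a reciprocal overlap of 50%. Without Rpl22l1 and Rpl7l1 it was 77 of 77. The median signal was 4.66 to 4.67 under these settings, except equal numbers of top peaks, for which it was not computed, and each library alone, which gave 3.86 to 5.55. The median number of footprints, 5.50 over both libraries, was 5.00 with a window of 250 bp, with the reference start only and in each library alone (5.00 to 5.00), and open promoters gave the same values. Members with a BANP match in a shared footprint numbered 7 instead of 4 when footprints were extended by 5 bp. Larger peak lists gave 5 pseudogenes with a peak in both libraries instead of 2, or 1.70% against 2.04% of all processed pseudogenes. The signal scale, the number of cuts and the callers' settings limit what can be compared between libraries, and 2 libraries give an SD with a wide margin.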
